A study of Mus musculus with 4 samples.

Results

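The genes described here encode the 8 subunits of the CCT chaperonin (also named TRiC), chosen by their symbols: Tcp1, Cct2, Cct3, Cct4, Cct5, Cct6a, Cct7 and Cct8. All 8 were listed among the 24411 genes of each library and all 8 passed the filter on low counts, which 13549 genes passed. Polyadenylated RNA was sequenced from 4 libraries of ICR mouse embryos that had been produced by in vitro fertilization and collected at the late two-cell stage, at 36 h post-insemination (hpi). A library was a pool of 10 embryos. In 2 libraries the embryos had been cultured with 6 µM 10074-G5, a small molecule that binds MYC and hinders its pairing with MAX, and in the 2 control libraries with DMSO, its solvent. No allele or transgene was introduced in either group. The start of treatment is 6 hpi in the series description and 3 hpi in the sample labels.

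CCT is a cytosolic folding machine built of a pair of stacked rings, in which each subunit has a fixed place, and a ring holds 1 copy of each of the 8 related proteins. It encloses newly made proteins and uses ATP to fold them. Actin and tubulin depend on it, as do many proteins with a beta-propeller fold, such as the cell cycle activator CDC20. Prefoldin hands nascent chains to it, and phosducin-like proteins assist it with particular clients. An oocyte stores mRNA and protein for such housekeeping machines, and the embryo renews them once its own genome is transcribed.

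The libraries held between 18206584 and 20718690 expected counts. DMSO replicate 1 stood apart from the others. Over the tested genes, its log2 CPM (counts scaled to library size with TMM factors) had a Pearson's r of 0.87 with DMSO replicate 2, against 0.896 and 0.912 between DMSO replicate 2 and the inhibitor-treated libraries. Summed over 18 listed genes of the transient two-cell transcription program, such as Zscan4d and Zfp352, the TPM was 1719 and 5632 in DMSO replicates 1 and 2, and 7247 and 7521 in the treated replicates. The 20 oocyte transcripts summed to between 28341 and 32484 TPM, but single members moved with DMSO replicate 1. Bmp15, an oocyte growth factor gene, had 84.6 TPM there and 447, 698 and 621 TPM in DMSO replicate 2 and the treated replicates. The oocyte genes Gdf9, Mos and Nlrp5 were also lowest in DMSO replicate 1, with 18.2, 3.57 and 10.01 TPM. In DMSO replicate 2 they had 64.9, 6.36 and 23.9 TPM. The treated replicates had 103 and 126 TPM of Gdf9, 8.71 and 8.37 of Mos, and 31.4 and 29.4 of Nlrp5. Zp3, a zona pellucida gene, went the other way, with 248 TPM in DMSO replicate 1 and 101, 81.7 and 87.7 TPM in the others. The 13 cumulus cell markers summed to between 12.5 and 28.1 TPM, and 6 of the 13 passed the filter on low counts. Of the 13 markers, 4 had no counts in any library, Ptx3, Amh and Foxl2 among them. The highest count of any of the 13 in a library was 687. Cyp19a1 had between 23 and 128 counts, and Tnfaip6 had 0 counts in DMSO replicate 1 and between 38 and 95 in the other libraries. The part that the state of DMSO replicate 1 had in the results below was not tested. The fitted differences of the subunits and of the lists are given with and without this library. The embryo number in a library was fixed but the RNA per embryo was not measured, so less of a transcript per embryo and more of all other RNA cannot be told apart.

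Promoter windows of RefSeq (GRCm38.p6, the mm10 build of the files), 250 bases before to 50 bases after a start site, were matched to 7 of the 8 genes by symbol, with 9 windows in all. No window was used for Cct4. Those with the lowest log2FC (Tcp1 and Cct6a) and the highest log2FC (Cct7 and Cct8) between the groups are shown 5′ to 3′ on the strand of the gene. Capitals mark the CCAAT box (CCAAT or, on the other strand, ATTGG) and the core recognized by ETS factors (CCGGAA or TTCCGG), 2 motifs picked after the sequences had been read.
Tcp1, chr17:12916079-12916378, plus strand: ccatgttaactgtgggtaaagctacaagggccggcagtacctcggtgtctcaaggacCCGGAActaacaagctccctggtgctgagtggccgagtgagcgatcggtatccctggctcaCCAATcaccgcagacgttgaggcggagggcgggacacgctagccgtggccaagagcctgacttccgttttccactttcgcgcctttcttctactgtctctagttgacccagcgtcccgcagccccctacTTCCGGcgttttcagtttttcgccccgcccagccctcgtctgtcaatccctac
Cct6a, chr5:129787106-129787405, plus strand: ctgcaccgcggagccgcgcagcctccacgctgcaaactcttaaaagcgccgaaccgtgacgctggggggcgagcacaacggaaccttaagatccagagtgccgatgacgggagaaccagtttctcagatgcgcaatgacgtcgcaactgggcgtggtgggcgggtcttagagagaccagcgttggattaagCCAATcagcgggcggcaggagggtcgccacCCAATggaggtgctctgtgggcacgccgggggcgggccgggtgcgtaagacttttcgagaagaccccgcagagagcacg
Cct7, chr6:85451255-85451554, plus strand: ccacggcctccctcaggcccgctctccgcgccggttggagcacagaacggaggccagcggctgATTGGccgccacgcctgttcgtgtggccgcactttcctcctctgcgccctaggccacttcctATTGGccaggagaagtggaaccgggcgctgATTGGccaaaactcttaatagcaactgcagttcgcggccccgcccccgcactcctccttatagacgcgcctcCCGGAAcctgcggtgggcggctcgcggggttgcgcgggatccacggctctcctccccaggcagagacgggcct
Cct8, chr16:87495820-87496119, minus strand: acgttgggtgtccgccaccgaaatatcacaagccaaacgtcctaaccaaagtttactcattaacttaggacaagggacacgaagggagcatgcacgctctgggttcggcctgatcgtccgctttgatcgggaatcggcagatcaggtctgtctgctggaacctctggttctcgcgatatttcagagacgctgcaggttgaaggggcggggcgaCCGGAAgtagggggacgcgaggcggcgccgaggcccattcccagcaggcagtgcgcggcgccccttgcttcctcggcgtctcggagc

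The E-box CACGTG, the preferred site of MYC-MAX and its own reverse complement, was found in 0 of the 9 windows, against 7.15% of all 32851 windows. The heat shock element, alternating GAA and TTC units with any pair of bases between them, searched on both strands, was found in 0 of the 9 windows and in 0.603% of all windows. A CCAAT box was present in 4 windows, those of Tcp1, Cct3, Cct6a and Cct7, against 37.4% of all windows. The core CCGGAA was present in 5 windows, of Tcp1, Cct2, Cct5, Cct7 and Cct8, against 14.9% of all windows. Cct2 and Cct5 each had a further window without it. For Cct5 the match lay in the window from 31601490 to 31601789, inside the gene. The window at its outer start, from 31601797 to 31602096, had 0 matches. No match overlapped a match of another motif. Motifs outside these windows were not searched.

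Transcripts of the subunits were present at unequal levels, although a ring needs equal numbers of each protein. On the FPKM scale (fragments scaled to transcript length and library size, so that genes can be compared), Tcp1 was the highest and Cct7 the lowest subunit in all 4 libraries. Their ratio was 11.9 and 7.72 in DMSO replicates 1 and 2, and 5.66 and 6.59 in the treated replicates. By mean FPKM the order was Tcp1, Cct3, Cct8, Cct4, Cct5, Cct6a, Cct2 and Cct7, and among all listed genes the members ranked between 527 and 2805. Tcp1 lay above Cct3, Cct6a above Cct2, and Cct2 above Cct7 in 4 of 4 libraries. Cct3 lay above Cct8 in 2 of 4 libraries, Cct8 above Cct4 in 3, Cct4 above Cct5 in 1, and Cct5 above Cct6a in 3, so these neighbours in the order were not separated beyond the spread between libraries.

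**Figure D1:**
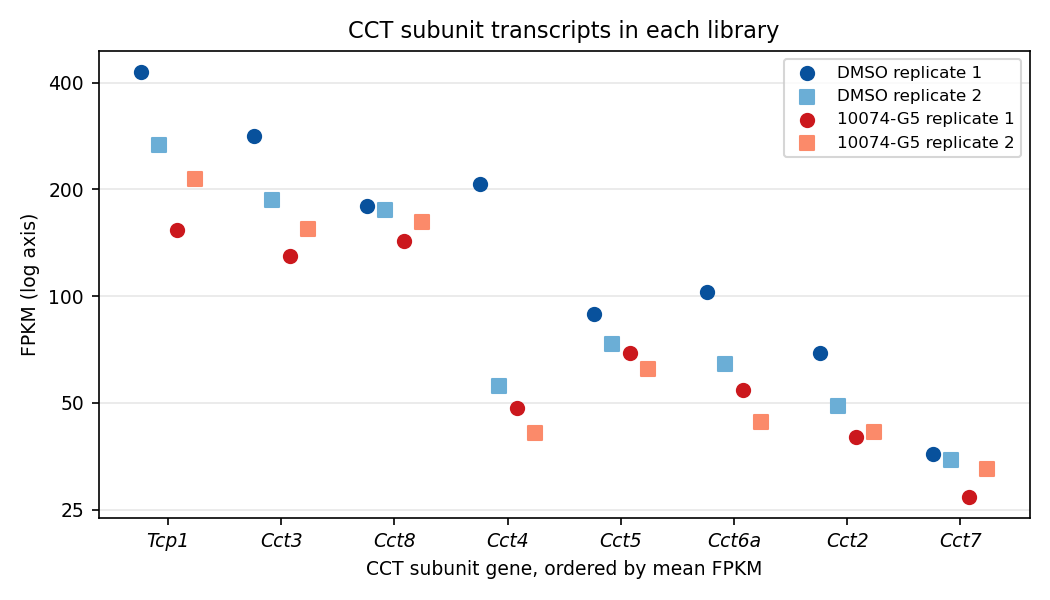
FPKM (log axis) of the 8 CCT subunit genes in each of the 4 libraries, with 1 point per library and genes ordered by mean FPKM. On this scale both 10074-G5 points lie below both DMSO points for each of the 8 genes, and DMSO replicate 1 is the highest point for each, most of all for Cct4 (208 FPKM against 55.7 in DMSO replicate 2).

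The question of the comparison was whether transcripts of the embryo differ when MYC is kept from pairing with MAX. All 8 subunits had a lower level in inhibitor-treated than in control embryos, with a median log2FC of -0.80 and a range from -1.77 (Cct4) to -0.36 (Cct8). The median over all tested genes was 0.04, and 48.5% of them had a log2FC below 0. The inhibitor-treated libraries did not overlap the control libraries for 8 of 8 subunits on the CPM scale, where 28.3% of all tested genes were lower without overlap, for 8 of 8 on the FPKM scale, where 25.4% were, and for 6 of 8 on the TPM scale, where 23.1% were. On the TPM scale Cct7 and Cct8 overlapped. A gene was called where |log2FC| was above 1 and the p-value of the quasi-likelihood test of edgeR, adjusted by Benjamini-Hochberg, was under 0.05. This called 0 of the 8 subunits lower or higher, and 0% of all tested genes in either direction. An unadjusted p under 0.05 was found for 2 subunits, Tcp1 and Cct4, and for 10.1% of all tested genes in this direction. DESeq2 on the same genes called 1 subunit, Cct4, lower, where it called 3.54% of all genes lower. Cct4 was also the 1 subunit called when DESeq2 was run on every gene that had a count (2.4% called lower), with transcript lengths (2.41%), and by edgeR with no filter on low counts (2.63%). In limma on log2(FPKM + 1), 0 subunits and 0% of all 10625 genes tested there were called.

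All 8 subunits also followed the same order of libraries. DMSO replicate 1 was highest and DMSO replicate 2 next on the CPM scale for 8 of 8, an order found for 24% of all tested genes. Genes with this order are by definition lower without overlap, and 3245 of the 3838 tested genes that were lower without overlap had it. The order therefore adds only which control library was the higher. The difference between the control libraries was as large as that between the groups, with a median of 0.80 on the log2 scale for the subunits and -0.02 for all tested genes. The lack of overlap on the CPM scale already places both treated libraries below DMSO replicate 2 for 8 of 8 subunits. The sign of the difference from that library alone is therefore no separate check. Without DMSO replicate 1, the log2FC was below 0 for 8 of 8 subunits (48.1% of all tested genes), from -0.54 to -0.15, but its median was -0.29. Both inhibitor-treated libraries then still lay below DMSO replicate 2 for 8 of 8 subunits, against 38% of all tested genes, and edgeR gave 0 subunits an unadjusted p under 0.05, against 13.9% of all tested genes in either direction. Without DMSO replicate 2, edgeR called 5 subunits lower (Tcp1, Cct2, Cct3, Cct4 and Cct6a), where 14.9% of all tested genes were called lower.

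**Figure D2:**
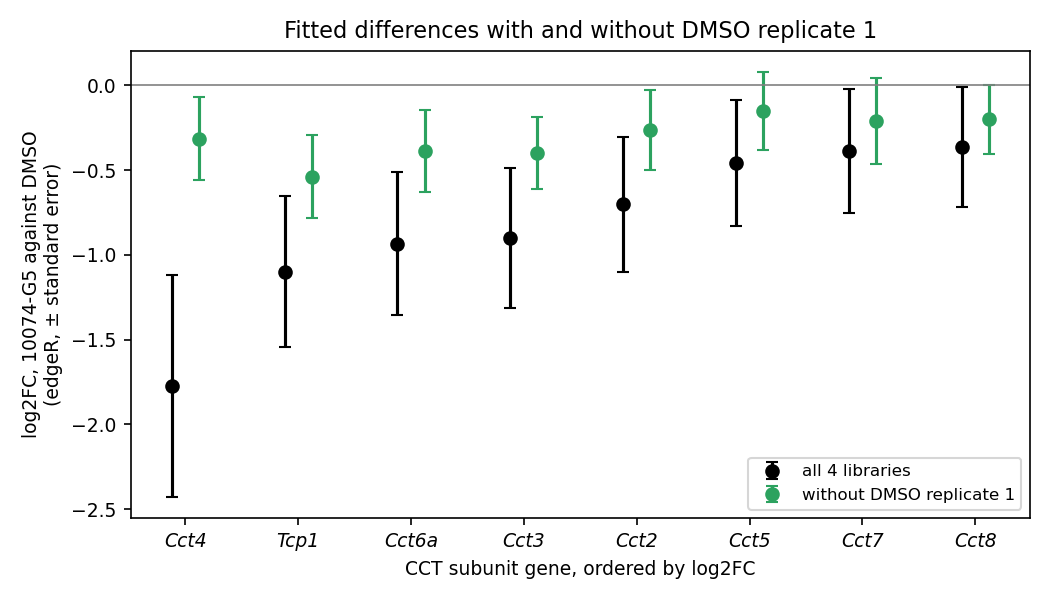
Fitted log2FC of each CCT subunit gene (10074-G5 against DMSO, edgeR), with bars of 1 standard error, over all 4 libraries (black) and without DMSO replicate 1 (green). All points lie below 0, and those without DMSO replicate 1 are closer to 0, between -0.54 and -0.15.

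Tcp1, the founding member of the family and named for the t-complex, is found at bases 12916329 to 12925067 of chromosome 17 (GRCm38.p6) and encodes the alpha subunit. DMSO replicates 1 and 2 had 429 and 267 FPKM of it, and the treated replicates 1 and 2 had 154 and 214 FPKM. The groups did not overlap. By subtraction of FPKM, the control libraries lay farther from each other than the lower of them lay from either treated library. As a ratio of FPKM this held for treated replicate 2 but not for treated replicate 1. The mean was 348 ± 115 FPKM (SD, n = 2) in control and 184 ± 42.3 FPKM (SD, n = 2) in treated embryos. The log2FC was -1.10 ± 0.45 (SE), with an adjusted p of 0.333 by edgeR, and -0.54 without DMSO replicate 1. This was the lowest log2FC among the 8 subunits in that fit.

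Cct4, the delta subunit gene, lies on chromosome 11 from 22990593 to 23003336, and a mutation of its rat counterpart is known to cause a sensory neuropathy. DMSO replicates 1 and 2 had 208 and 55.7 FPKM of it, and the treated replicates 48.4 and 41.0 FPKM. A single library was therefore high, while the other 3 lay close together. On the CPM scale DMSO replicate 1 was 4.44-fold above DMSO replicate 2, and Cct4 was the 1 subunit that differed by over 2-fold between the control libraries, as 43.4% of all tested genes did. Between the treated libraries 0 subunits differed by over 2-fold, against 21.9% of all tested genes. The log2FC of Cct4 was -1.77 ± 0.65 (SE), with an adjusted p of 0.333 by edgeR, and -0.31 without DMSO replicate 1. By DESeq2 on the same genes it was -1.80 (standard error 0.59, adjusted p = 0.0364), and over all alternatives the adjusted p of Cct4 ranged from 0.00107 to 0.992.

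Cct3, the gamma subunit gene on chromosome 3 from 88297135 to 88321766, had 283 and 187 FPKM in the control libraries and 129 and 154 FPKM in the treated libraries. The treated embryos were lower without overlap, at 75% of the CPM of DMSO replicate 2. The log2FC was -0.90 ± 0.41 (SE), for which edgeR gave an adjusted p of 0.35. Cct6a, the zeta subunit gene on chromosome 5 from 129787356 to 129846443, had 103 and 64.5 FPKM in control and 54.3 and 44.3 FPKM in treated embryos. It was at 75.7% of the CPM of DMSO replicate 2, with a log2FC of -0.93 ± 0.42 (SE), for which edgeR gave an adjusted p of 0.347. Cct2, the beta subunit gene on chromosome 10 from 117050997 to 117063852, in which human mutations cause a retinal disease, had 69.2 and 49.0 FPKM in control and 40.2 and 41.3 FPKM in treated embryos. The treated replicates of Cct2 were nearly equal, and its log2FC was -0.70 ± 0.40 (SE), for which edgeR gave an adjusted p of 0.412. Without DMSO replicate 1 the log2FC was -0.40 for Cct3, -0.39 for Cct6a and -0.26 for Cct2.

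The other 3 subunits differed least. Cct5, the epsilon subunit gene on chromosome 15 from 31590800 to 31601846, had 89.2 and 73.2 FPKM in control and 69.3 and 62.4 FPKM in treated embryos, a log2FC of -0.46 ± 0.37 (SE), for which edgeR gave an adjusted p of 0.547. Cct7, the eta subunit gene on chromosome 6 from 85451505 to 85468477, had 35.9 and 34.5 FPKM in control and 27.2 and 32.5 FPKM in treated embryos, a log2FC of -0.39 ± 0.37 (SE), for which edgeR gave an adjusted p of 0.608. Cct8, the theta subunit gene on chromosome 16 from 87483325 to 87495869, whose level has been linked to the assembly of the whole complex in pluripotent stem cells, had 179 and 175 FPKM in control and 143 and 161 FPKM in treated embryos. Its log2FC was -0.36 ± 0.35 (SE), for which edgeR gave an adjusted p of 0.621. Without DMSO replicate 1 it was -0.15 for Cct5, -0.21 for Cct7 and -0.20 for Cct8. For Cct7 and Cct8 the control libraries differed least, by 1.24-fold and 1.22-fold on the CPM scale. The counts behind all these values ranged from 1228 (Cct7 in inhibitor-treated replicate 1) to 18032 (Tcp1 in DMSO replicate 1), so that counting error alone was at most 2.85%, and PCR copies were counted like separate molecules.

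Added together, the 8 subunits came to 1688 and 1213 TPM in DMSO replicates 1 and 2, and to 923 and 1011 TPM in the treated replicates. The sum was lower in treated embryos without overlap, at 66.7% of the control mean and at 79.7% of DMSO replicate 2. The means were 1450 ± 336 TPM (SD, n = 2) in control and 967 ± 62.1 TPM (SD, n = 2) in treated embryos. An exact two-sided permutation test of the sum gave p = 0.333, the smallest value that 2 libraries against 2 can give. The unit changed the size of the difference, since treated embryos had 61.6% of the control mean on the FPKM scale and 54.8% on the CPM scale. Without Tcp1 and Cct4, the remaining 6 subunits stood at 77.1% of the control mean in TPM.

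Shares within a library do not depend on how libraries were scaled. They are tied to one another, since a larger share of a subunit, such as that of Cct4 in DMSO replicate 1, leaves less for the others. Of the summed FPKM of the 8 subunits, Tcp1 made up 30.7% and 29.4% in the control libraries, and 23.1% and 28.5% under treatment. Cct8 made up 12.8% and 19.3% in control and 21.5% and 21.5% in treated embryos, a difference of 5.42 percentage points, or 2.16 without DMSO replicate 1. The shares of Cct2, Cct5 and Cct7 were also higher in treated embryos without overlap, by 0.58 to 2.12 percentage points, or 0.36 to 1.28 without DMSO replicate 1. The share of Tcp1 was lower without overlap, by -4.29 percentage points, or -3.64 without DMSO replicate 1. Cct4 made up 14.9% in DMSO replicate 1 and between 5.46% and 7.27% in the other 3 libraries, and the groups overlapped. Its difference in share was -4.15 percentage points, and 0.22 without DMSO replicate 1. The shares of Cct3 (19.4% to 20.7%) and Cct6a (5.89% to 8.15%) overlapped too. The exact two-sided permutation test of a share cannot reach 0.05 with 2 libraries against 2, and its p was at least 0.333 for each subunit (0.533 after adjustment over 8).

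**Figure D3:**
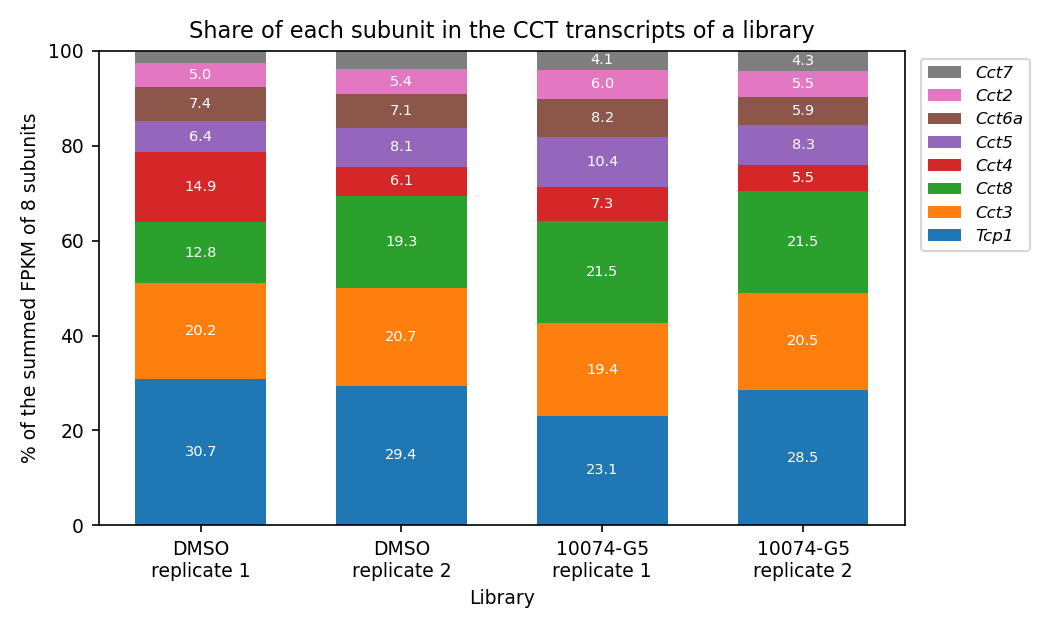
Share of each CCT subunit in the summed FPKM of the 8 subunits, as a percentage, in each of the 4 libraries. DMSO replicate 1 differs from the other 3 libraries mainly in Cct4 (14.9%) and Cct8 (12.8%).

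Many of the 8 genes share their start region with another gene. In the GENCODE annotation of the same build, 6 of the 8 subunits had a listed gene that starts within 1000 bases on the opposite strand, against 17.6% of 13042 tested genes with a position. Mrpl18, which encodes a mitochondrial ribosomal protein, starts 644 bases from Tcp1 and had 252 and 313 FPKM in control and 309 and 303 FPKM in treated embryos. Its log2FC was -0.01 ± 0.34 (SE), for which edgeR gave an adjusted p of 0.991, beside -1.10 for Tcp1. Without DMSO replicate 1 the log2FC of Mrpl18 was -0.03. Pradc1 starts 456 bases from Cct7 and had 40.8 and 44.8 FPKM in control and 59.6 and 61.8 FPKM in treated embryos, a log2FC of 0.31 (adjusted p = 0.703 by edgeR), or 0.40 without DMSO replicate 1. Psph, the last enzyme of serine synthesis, starts 451 bases from Cct6a and had 15.3 FPKM in DMSO replicate 1 and between 2.85 and 5.01 FPKM in the other libraries. Its log2FC was -1.54 over all libraries (adjusted p = 0.368 by edgeR) and -0.21 without DMSO replicate 1.

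The remaining head-to-head neighbours, Tsacc of Cct3, Fam173b of Cct5 and B130034C11Rik of Cct8, had at most 59 counts in any library. At their far ends, Tcp1 overlaps Acat3 by 1255 bases and Cct8 overlaps Usp16 by 192 bases. At their starts, Tcp1 overlaps Mrpl18 by 645 bases, Cct6a overlaps Psph by 452 bases and Cct7 overlaps Pradc1 by 457 bases. The kit does not mark the strand, so reads of these overlaps cannot be assigned with certainty, and the expected counts of Tcp1 and Cct8 were not whole numbers in 4 of 4 libraries, and that of Cct7 in 1. The counts of Acat3 came to at most 0.694% of those of Tcp1, those of Usp16 to between 273% and 330% of those of Cct8, and those of Pradc1 to 41.8% and 47.1% of those of Cct7 in control and 76.8% and 67.4% in treated embryos. Mrpl18 had between 3283 and 4382 counts in a library, and Psph between 71 and 369. How many reads of any of these neighbours were counted for the subunit they overlap, or the reverse, was not tested. Usp16, a deubiquitinase gene, had between 379 and 418 FPKM in the 4 libraries and a log2FC of -0.17 (adjusted p = 0.838 by edgeR), or -0.08 without DMSO replicate 1. Snora20 in Tcp1 and Snora15 in Cct6a, small nucleolar RNAs that lie within their host genes, had no counts in any library.

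The other genes of the folding pathway were read from 7 lists with 70 listed genes, of which 66 were tested. By edgeR with Benjamini-Hochberg adjustment 0 of the 66 genes were called in either direction. An unadjusted p under 0.05 was found for 6 lower and 3 higher genes (14.9% of all tested genes in either direction). DESeq2 on the same genes called 4 genes lower, which were Pfdn6, Uxt, Pdrg1 and Cdc20, and 0 higher, against 3.54% lower and 0.716% higher of all genes. Uxt was not called when every gene that had a count entered the fit, and limma called 0 genes. Without DMSO replicate 2, edgeR called 12 of the 66 genes lower and 11 higher, against 14.9% and 15.8% of all tested genes, and without DMSO replicate 1 it called 0. Of the 66 genes, 33 had a log2FC below 0, 21 were lower and 21 higher without overlap (28.3% and 28.9% of all tested genes).

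Prefoldin, which delivers nascent chains to CCT, had 5 of 6 subunits with a log2FC below 0 and a median of -0.28, or -0.15 without DMSO replicate 1. Pfdn6 had 508 and 323 FPKM in control and 142 and 137 FPKM in treated embryos. The treated libraries were close to each other and below both controls, and the log2FC was -1.73 ± 0.41 (SE), with an adjusted p of 0.333 by edgeR, and -1.24 without DMSO replicate 1. DESeq2 on the same genes gave Pfdn6 an adjusted p of 0.00843. Pfdn2 had 448 and 312 FPKM in control and 225 and 296 FPKM in treated embryos, a log2FC of -0.70 (adjusted p = 0.418 by edgeR), or -0.25 without DMSO replicate 1. Pfdn4 had a log2FC of 0.01 (adjusted p = 0.992 by edgeR), or 0.21 without DMSO replicate 1, and its sign turned without DMSO replicate 2 and without inhibitor-treated replicate 1.

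The R2TP and URI prefoldin-like complex, a chaperone system that assembles RNA polymerases and other large complexes, was the list nearest to the CCT subunits. All 8 of its genes had a log2FC below 0, with a median of -0.68, and 7 of 8 without DMSO replicate 1, with a median of -0.25. Pdrg1 had 356 and 186 FPKM in control and 62.8 and 111 FPKM in treated embryos, a log2FC of -1.83 ± 0.51 (SE), for which edgeR gave an adjusted p of 0.333, and -1.10 without DMSO replicate 1. Ruvbl1, an ATPase of this complex, had 253 and 206 FPKM in control and 140 and 184 FPKM in treated embryos, a log2FC of -0.66 (adjusted p = 0.419 by edgeR), or -0.34 without DMSO replicate 1. Of the phosducin-like genes 3 were tested, with a median of -0.35 and, without DMSO replicate 1, 0.13. Txndc9 had 183 and 183 FPKM in control and 144 and 164 FPKM in treated embryos, while Pdcl3 had 11.5 and 29.1 FPKM in control and 33.5 and 32.7 FPKM in treated embryos. The log2FC was -0.40 for Txndc9 and 0.61 for Pdcl3, or -0.25 and 0.19 without DMSO replicate 1.

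Among the clients of CCT, taking all tested genes at any level, more had a log2FC above 0 than below. This did not hold for the beta-propeller and other clients with a mean FPKM of at least 10, which are given in the next paragraph. Of 18 tested actin and tubulin genes, 13 had a log2FC above 0 and 5 below, with a median of 0.44, or 0.37 without DMSO replicate 1. Tubb2a, a beta-tubulin gene, had 7.53 and 37.4 FPKM in control and 71.9 and 55.7 FPKM in treated embryos, a log2FC of 1.45 ± 0.65 (SE), for which edgeR gave an adjusted p of 0.343. Tubb4b, the highest of these genes, had 314 and 216 FPKM in control and 144 and 191 FPKM in treated embryos and a log2FC of -0.83 (adjusted p = 0.371 by edgeR). Without DMSO replicate 1 the log2FC was 0.77 for Tubb2a and -0.36 for Tubb4b. Members of the tubulin family are alike in sequence, and their counts are uncertain where reads could not be placed on 1 gene.

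Among 19 beta-propeller and other clients, 12 had a log2FC above 0 and 7 below, with a median of 0.41, or 0.24 without DMSO replicate 1. A mean FPKM of at least 10 was reached by 10 of the 19. Among these, the log2FC was below 0 for Cdc20, Vhl (-1.13), Strn3 (-0.89), Plk1 (-0.65), Ccne1 (-0.62) and Ppp2r2a (-0.50). It was above 0 for Strn, Gnb1 (0.80), Ppp2r2d (0.41) and Wrap53 (0.03). Each of these genes kept its sign without DMSO replicate 1. Cdc20, an activator of the anaphase-promoting complex, had 291 and 120 FPKM in control and 56.0 and 77.0 FPKM in treated embryos. Its log2FC was -1.83 ± 0.54 (SE), with an adjusted p of 0.333 by edgeR, and -0.85 without DMSO replicate 1, and DESeq2 on the same genes gave an adjusted p of 0.0157. Strn, a striatin gene, had 4.78 and 15.9 FPKM in control and 23.8 and 19.8 FPKM in treated embryos, a fitted ratio of 2 (adjusted p = 0.392 by edgeR), with a log2FC of 0.46 without DMSO replicate 1.

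**Figure D4:**
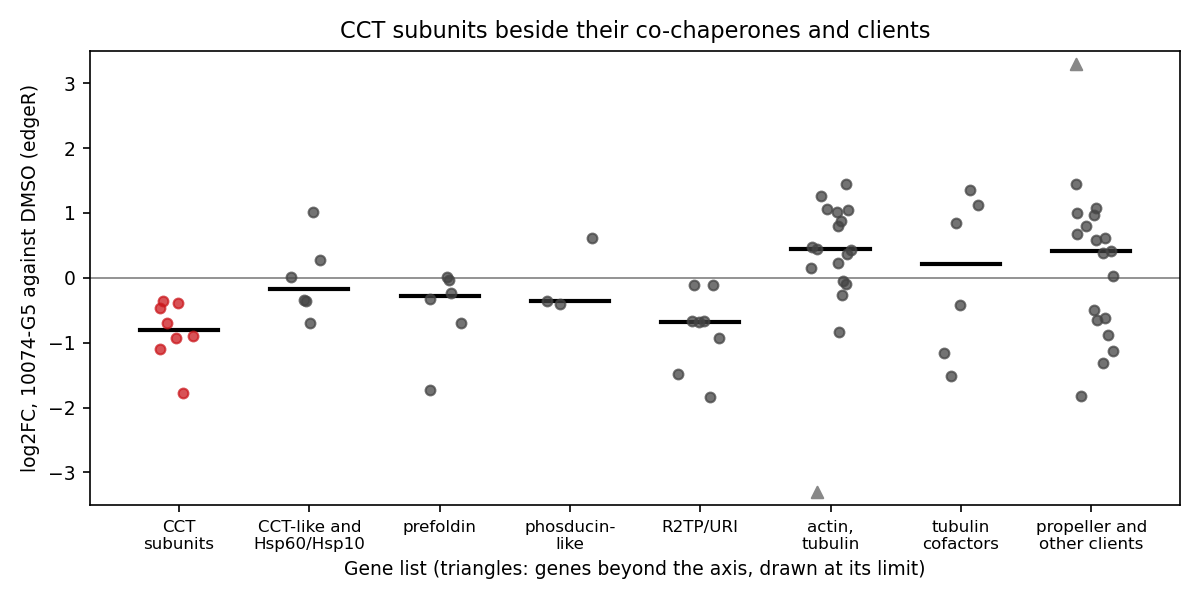
Fitted log2FC (10074-G5 against DMSO, edgeR, all 4 libraries) of the CCT subunits (red) and of the tested genes of 7 lists of related genes (grey), with 1 point per gene, a bar at the median of the list, and triangles at the axis limit for genes beyond it (Tuba8 and Gnb5). The CCT subunits and the R2TP and URI list lie wholly below 0 (medians -0.80 and -0.68), and the actin and tubulin list has its median at 0.44.

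The tubulin folding cofactors, which act on tubulin after CCT, were split, with 3 of 6 tested genes on either side of 0 and a median of 0.22, or 0.09 without DMSO replicate 1. Tbca had 104 and 249 FPKM in control and 317 and 353 FPKM in treated embryos (log2FC 0.85, adjusted p = 0.387 by edgeR), while Tbcc had 58.3 and 30.4 FPKM in control and 17.2 and 28.2 FPKM in treated embryos (log2FC -1.15, adjusted p = 0.343 by edgeR). Without DMSO replicate 1 the log2FC was 0.45 for Tbca and -0.42 for Tbcc. The list of CCT relatives, which holds the testis paralog Cct6b, the chaperonin-like BBS proteins, which assist assembly of the BBSome, and the mitochondrial chaperonin, had a median of -0.17, or 0.03 without DMSO replicate 1. Cct6b had between 5.02 and 11.5 FPKM in the 4 libraries, below each of the 8 subunits. Hspd1, the mitochondrial chaperonin, had 54.6 and 58.0 FPKM in control and 39.5 and 58.0 FPKM in treated embryos (log2FC -0.35, adjusted p = 0.649 by edgeR), with a log2FC of -0.25 without DMSO replicate 1. Hspe1, its partner in the same chamber, had 85.3 and 152 FPKM in control and 264 and 250 FPKM in treated embryos (fitted ratio 2.02, adjusted p = 0.333 by edgeR), and a log2FC of 0.77 without DMSO replicate 1.

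The mean profile of the 8 subunits, as log2 CPM centred on the mean of each gene over the 4 libraries, was 0.79 and -0.05 in DMSO replicates 1 and 2, and -0.39 and -0.36 in the treated replicates. Among 5069 other genes whose mean FPKM reached 10, the 5 nearest to this profile by Euclidean distance over the 4 libraries were Exd2 (distance 0.0368), Bzw1 (0.0420), Polr2e (0.0421), H3f3b (0.0492) and Psmb7 (0.0623). Cct2 was the subunit nearest to the mean profile (0.118) and Cct4 the farthest (1.15). Polr2e, an RNA polymerase subunit gene, had 442 and 283 FPKM in control and 225 and 239 FPKM in treated embryos.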

How the data were processed

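The authors aligned read pairs of SMART-Seq libraries to mm10 with STAR (version 2.7.10), used only reads that mapped to 1 place, and estimated gene abundance in RSEM (version 1.3.3), as the paper and the submitters' processing notes give it. The deposited expected counts are RSEM estimates of fragments per gene and are not normalized. The deposited TPM and FPKM are scaled by the authors to effective transcript length and library. Groups and replicate numbers came from the sample labels, and the paper calls the replicates biological. Neither says whether they came from separate fertilizations or cultures, and p-values measure the spread between these libraries.

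Expected counts were rounded. Genes were filtered with filterByExpr (minimum count 10, minimum total 15), scaled with TMM factors (0.873, 1.04, 1.04 and 1.06) and tested with edgeR 4.0.16 (robust quasi-likelihood, R 4.3.3) with Benjamini-Hochberg adjustment over 13549 genes. DESeq2 1.42.0 and limma 3.58.1 were alternatives, and the scripts were tested on simulated counts. The common biological coefficient of variation was 0.557. The members and lists were chosen with earlier results of these data known, and the lists were written from general knowledge. In each list the genes with the lowest and highest log2FC and the highest FPKM, among those with a mean FPKM of at least 10, were named, with all neighbours. Genes of the partner lists given beyond this rule were chosen after their values were seen. They were Uxt, Cct6b, Tuba8 and Gnb5 (in a caption), and, besides Cdc20 and Strn, the beta-propeller and other clients with a mean FPKM of at least 10. Protein sequences were not used here.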

Additional observations from a re-analysis of the deposited data

How the results depend on the processing

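Over 14 alternatives the log2FC was below 0 for 8 of 8 subunits, and of 112 single-subunit values 103 kept their side of the threshold while 9 passed it. The number of subunits called was 0 by edgeR. It was 1 (Cct4) by DESeq2 in each of its 3 settings (the filtered genes, every gene with a count, and transcript lengths), and 1 by edgeR with no filter on low counts. With each library left out in turn it ranged from 0 to 5 (the last without DMSO replicate 2), where the lone library of a group is assumed to vary like the other group. The median log2FC of the subunits was between -1.14 and -0.29 with each library left out, the latter without DMSO replicate 1, and it was -0.63 when scaled by library totals alone, which moved the median of all tested genes from 0.04 to 0.17. The log2FC of Pfdn4, between -0.15 and 0.21 with each library left out, reversed to -0.15 without DMSO replicate 2 and to -0.01 without inhibitor-treated replicate 1. The cause was not tested. The median of the phosducin-like list was 0.13 by DESeq2 on all genes, and that of the tubulin cofactors ranged from -0.42 to 0.45 over the alternatives.

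Over all tested genes edgeR called 0 lower and 0 higher, DESeq2 479 and 97 on the filtered genes, 437 and 87 on every gene with a count, and 438 and 87 with transcript lengths. edgeR called 479 and 165 with no filter, 32 and 12 with the replicate block, and 2025 and 2147 without DMSO replicate 2.

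With the replicate number as a block, 0 subunits were called and the median was -0.75, and the lowest adjusted p was 0.283 (Cct4, log2FC -1.41). The labels give the number no meaning beyond the replicate, and the replicate 1 to 2 differences of both groups had a correlation of -0.02. This value cannot tell whether libraries of the same number shared a fertilization or culture, which was not tested.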
